A study of Homo sapiens with 6 samples.

Results

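The MYC-MAX-MXD network is a set of dimerising transcription factors that read the same DNA word, and its 10 genes here are MYC, MYCN, MYCL, MAX, MXD1, MXD3, MXD4, MXI1, MNT and MLX. They were chosen by gene symbol, with earlier results of these data known, and each matched 1 of the 60617 gene rows of the count table. Counts were found for 9 of the 10, and the same 9 are among the 17223 genes that passed the filter on low counts. RNA sequencing covered 6 libraries of NCI-H1299, a human lung cancer line that is labelled lung adenocarcinoma. FuHsi was knocked down in 3 libraries, titled Sh1, and the other 3, titled Puro, are labelled WT and called control here. Sh1 and Puro are not explained in the labels, and Sh1 is the only knockdown title. Replicates are not said to be separate cultures, so the p-values speak of the spread among these libraries, which could be technical.

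MYC, MYCN and MYCL are activators that bind DNA as dimers with MAX at the E-box, a short palindrome with the letters CACGTG. MXD1, MXD3, MXD4, MXI1 and MNT compete for the same partner and the same word, and bring SIN3-HDAC corepressors that close chromatin. MLX is a partner similar to MAX that pairs with MLXIP (MondoA) and MLXIPL (ChREBP), which respond to sugar, and also with MXD1, MXD4 and MNT. In tumour cells the network is known for its hold on growth, ribosome production and nucleotide synthesis.

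The E-box itself was found near the starts of 3 members, and these are shown because it is the word that the network's own proteins bind. The windows run from 250 bases before to 50 bases after each RefSeq start (GRCh38.p14), and each sequence is given 5′ to 3′ on the gene's strand with CACGTG in capitals and 12 flanking bases on each side.
MXD4 (chr4:2262330-2262359, minus strand): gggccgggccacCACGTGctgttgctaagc
MNT (chr17:2401236-2401265, minus strand): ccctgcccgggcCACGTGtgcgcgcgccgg
MLX (chr17:42567038-42567067, plus strand): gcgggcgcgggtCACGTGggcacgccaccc
ARRDC4 (chr15:97960481-97960510, plus strand): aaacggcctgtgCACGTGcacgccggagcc
The word began 238, 193, 50 and 210 bases before the start in MXD4, MNT, MLX and ARRDC4, in that order; ARRDC4 is a classical target of MLX dimers and no member. It was absent from the windows of MYCN, MYCL, MAX, MXD1, MXD3 and MXI1, which had 9 windows in all, and no window was read for MYC. Of the 35116 windows in the table, 7.26% held CACGTG on either strand, which for a palindrome is the same count. Among the 3 members with the word, MNT was higher in knockdown and MXD4 and MLX were not called, as given below.

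Library totals were 24231515 to 27900051 counts in knockdown and 30735547 to 34306849 in control, and scaled values correlated at 0.99 to 0.992 within groups. Of 6 lung adenocarcinoma markers, 5 were under 1 CPM (library-scaled counts, with TMM factors, the trimmed mean of M values) in every library, among them NKX2-1, SFTPB and NAPSA. The sixth, KRT7, had a mean of 4.10 CPM in knockdown and 1.24 CPM in control and rose by 1.72 on the log2 scale. NAPSA was also called higher, by 3.22, from 51 counts in the knockdown libraries and 6 in the control libraries. Of 5 epithelial markers, EPCAM, CDH1 and KRT19 were under 1 CPM in every library, while KRT8 and KRT18 were abundant. KRT8 fell by 0.63 and KRT18 was not called. Of the mesenchymal markers VIM fell by 0.70, FN1 rose by 0.93 and CDH2 was not called, and of 4 neuroendocrine markers 3 were under 1 CPM and SYP rose by 0.75. All 4 blood and both endothelial markers were under 1 CPM in every library; the blood list summed to 1.01 to 1.49 CPM in knockdown and 0.339 to 0.519 CPM in control. Of 3 fibroblast markers 2 were under 1 CPM, with sums of 1.14 to 2.7 CPM in knockdown and 1.28 to 2.65 CPM in control. Though under 1 CPM, PTPRC of the blood list and DCN of the fibroblast list were called higher, by 1.43 and 1.61. The part of these shifts in the results below was not tested. Genes were called at a Benjamini-Hochberg adjusted p under 0.05 over all 17223 tested genes by edgeR's quasi-likelihood test, which made 30.7% of them higher and 30.9% lower in knockdown. No row carries the name FuHsi, so the target's own level is not analysed here.

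Among the network genes the clearest differences were a lower level of MAX and an unequal shift of the MXD family. MAX and MXD3 were lower in knockdown, and MXD1, MXI1, MNT and, by a small amount, MYC were higher. MXD4, MLX and MYCL were not called. This made 4 of 9 tested members higher and 2 lower, and a total of 6 called is close to the 61.6% of all tested genes called in either direction. The knockdown and control libraries did not overlap for the same 6 members, against 65.3% of all tested genes. In bulk RNA a change in the mix of cells and a change in RNA per cell cannot be told apart.

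**Figure D1:**
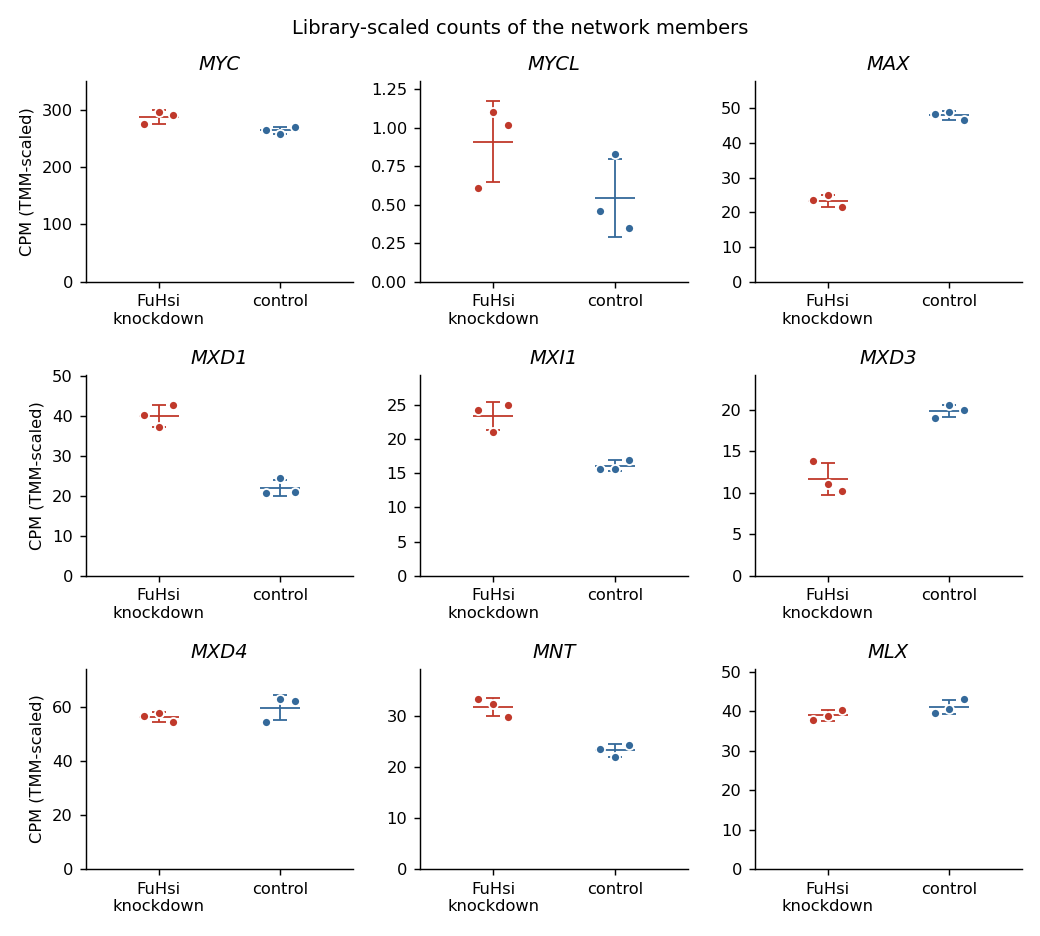
Library-scaled counts (CPM, linear axes from 0) of the 9 members with counts, for 3 FuHsi-knockdown libraries (left, red) and 3 control libraries (right, blue) in each panel. Points are libraries, and bars are the mean ± SD. MAX and MXD3 lie lower and MXD1, MXI1, MNT and MYC higher in all 3 knockdown libraries than in any control library, and the groups overlap in MYCL, MXD4 and MLX.

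MYC (ENSG00000136997, GRCh38 chromosome 8, 127735434 to 127741434, plus strand), the activator that gives the network its name, was the most abundant member. It had 275, 297 and 292 CPM in the knockdown libraries, against 265, 258 and 270.4 CPM in the control libraries. Every knockdown value was above every control value, though the nearest 2 were close. The log2 fold change was 0.12 ± 0.03 (SE), a ratio of 1.09, and passed edgeR's quasi-likelihood test (adjusted p = 0.00192). Genes of its own abundance class, the highest of 5 classes of equal size by mean log2 CPM, had a median log2 fold change of -0.20. With library size alone in place of TMM the log2 fold change of MYC was 0.27.

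The paralogs of MYC were scarce. MYCN (chromosome 2, 15940564 to 15947007, plus strand), the form known from neuroblastoma, had 0 counts in all 6 libraries, which allows up to 0.118 CPM in the shallowest library. MYCL (chromosome 1, 39895426 to 39902256, minus strand), first described in small cell lung cancer, had 18, 28 and 26 counts in knockdown and 15, 27 and 10 in control. Its scaled values overlapped between the groups, at 0.609, 1.10 and 1.02 CPM in knockdown, against 0.459, 0.832 and 0.346 CPM in control. The log2 fold change of 0.71 ± 0.42 (SE) had a 95% interval from -0.11 to 1.54 (adjusted p = 0.136). Without control replicate 2 it was called, at 1.15 (edgeR adjusted p = 0.0483).

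MAX (ENSG00000125952, chromosome 14, 65006174 to 65102695, minus strand), the shared partner of MYC and the MXD proteins on DNA, had the largest fall. It had 23.5, 24.9 and 21.6 CPM in the knockdown libraries, against 48.5, 49.1 and 46.6 CPM in the control libraries. All 3 knockdown values were far below the lowest control value. The means were 23.3 ± 1.66 CPM in knockdown and 48.04 ± 1.32 CPM in control (SD, n = 3 each), 2.06-fold lower in knockdown. Its log2 fold change was -1.04 ± 0.07 (SE) in edgeR's quasi-likelihood test (adjusted p = 4.94e-21), and the median of its abundance class was -0.08. Falls of at least 2-fold made up 3.12% of tested genes and rises of that size 9.16%; MAX was 1 member with such a fall, and 0 members had such a rise. This tally depends on the scaling: with library size alone MAX was at -0.89 and MXD1 at 1.02, which made 0 such falls and 1 such rise, and MAX was also short of 2-fold with upper-quartile factors, at -0.98, and without knockdown replicate 3, at -0.998. An antisense gene on the other strand shares 4.15% of the exonic bases of MAX, and averaged 0.411 CPM in knockdown and 0.347 CPM in control. Counts per gene do not separate the MAX isoforms.

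MXD1 (chromosome 2, 69897688 to 69942945, plus strand), a repressor that is known to rise when many cell types leave the cycle and differentiate, had the largest called rise. It had 40.2, 37.1 and 42.6 CPM in the knockdown libraries, against 20.6, 24.3 and 20.9 CPM in the control libraries. The groups were apart, with no knockdown library near a control library. The log2 fold change was 0.86 ± 0.07 (SE), a ratio of 1.82 (edgeR adjusted p = 5.74e-16).

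MXI1 (chromosome 10, 110207605 to 110287365, plus strand), also known as MXD2 and described as a target of hypoxia factors, rose less. It had 24.2, 21.02 and 24.97 CPM in the knockdown libraries, against 15.6, 15.7 and 17.03 CPM in the control libraries. The groups were apart, with the lowest knockdown library above the highest control library. Its log2 fold change was 0.54 ± 0.09 (SE) (edgeR adjusted p = 1.61e-07), in an abundance class with a median of 0.08.

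MXD3 (chromosome 5, 177301461 to 177312757, minus strand), a repressor whose mouse form is known to be expressed in S phase of cycling cells, went the other way. It had 13.9, 11.001 and 10.2 CPM in the knockdown libraries, against 19.02, 20.5 and 20.01 CPM in the control libraries. All knockdown libraries were lower, and knockdown replicate 1 was the nearest to control. The log2 fold change was -0.76 ± 0.10 (SE), 1.69-fold lower (edgeR adjusted p = 1.05e-09), and was -0.91 without that library. MXD3 shares 40.4% of its exonic bases with PRELID1 and RAB24. PRELID1, on the opposite strand, had 182 ± 5.58 CPM in knockdown and 265 ± 3.54 CPM in control, a log2 fold change of -0.54. RAB24, on the same strand, had one of 0.71. Whether reads were counted by strand is not given in the sources used here, and the part of these neighbours in the MXD3 value was not tested.

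MXD4 (chromosome 4, 2247432 to 2262294, minus strand), a repressor of the same family, had the highest level of the 4 MXD genes per exonic kilobase in both groups. It had 56.7, 57.9 and 54.3 CPM in the knockdown libraries, against 54.3, 62.9 and 62.1 CPM in the control libraries, and the groups overlapped. The log2 fold change was -0.09 ± 0.06 (SE), with a 95% interval from -0.19 to 0.02 (adjusted p = 0.180), and was 0.07 with library size alone. Without control replicate 1 it was called, at -0.16 (edgeR adjusted p = 0.0233). The median of its abundance class was -0.08, so its value lay at that of genes of like abundance.

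MNT (chromosome 17, 2384060 to 2401118, minus strand), the MAX partner found in most cells whether they cycle or rest, had 33.3, 32.3 and 29.9 CPM in the knockdown libraries, against 23.6, 21.97 and 24.5 CPM in the control libraries. Every knockdown library was higher. The log2 fold change was 0.45 ± 0.07 (SE) (edgeR adjusted p = 2.62e-07). MLX (chromosome 17, 42567068 to 42573239, plus strand), the partner of the sugar-responsive factors, had 37.6, 38.8 and 40.2 CPM in knockdown, against 39.5, 40.5 and 42.99 CPM in control. These overlapped, and the log2 fold change of -0.08 ± 0.06 (SE) had a 95% interval from -0.20 to 0.04 (adjusted p = 0.286). With library size alone it was 0.08. MLX shares 18.1% of its exonic bases with PSMC3IP on the other strand, which was at 6.95 CPM in knockdown and 8.27 CPM in control.

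**Figure D2:**
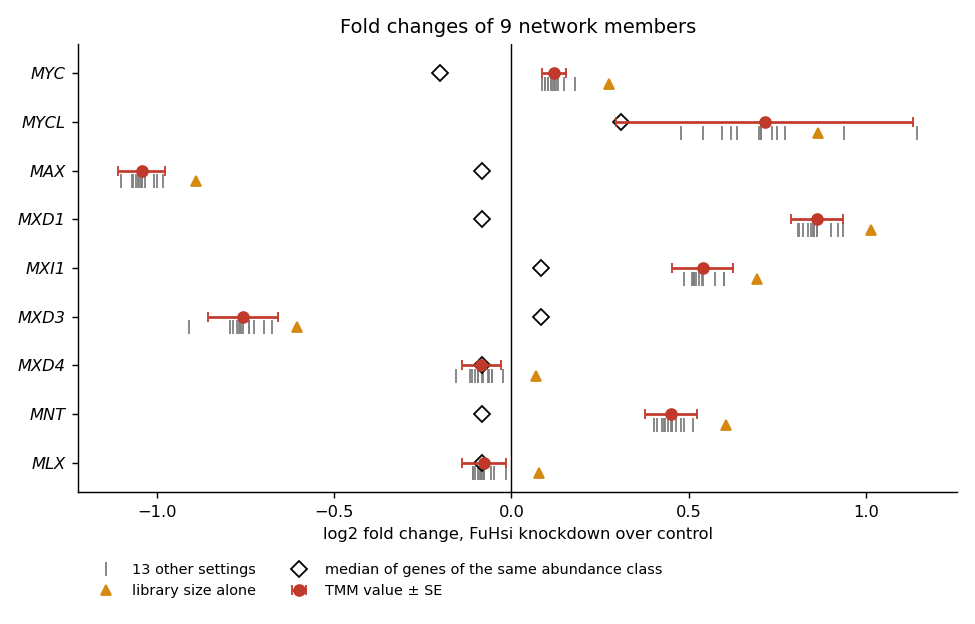
Log2 fold changes of the 9 tested members, FuHsi knockdown over control, with the TMM value ± SE (red), the median of all tested genes in the same abundance class (open diamonds), the value scaled by library size alone (orange triangles) and 13 other settings (grey ticks). MAX lies lowest at -1.04 and MXD1 is the highest called member at 0.86, and MXD4 and MLX lie on the median of their class and cross 0 with library size alone.

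Levels were then set per kilobase of annotated exon, as FPKM, so that members can be compared with each other. In knockdown the order was MYC at 95.9 FPKM, MLX at 9.13, MXD4 at 7.98, MXD1 at 6.29, MAX at 5.27, MXI1 at 5.08, MNT at 3.65, MXD3 at 2.27 and MYCL at 0.180. In control it was MYC at 88.2 FPKM, MAX at 10.8, MLX at 9.63, MXD4 at 8.47, MXD3 at 3.85, MXI1 at 3.50, MXD1 at 3.46, MNT at 2.67 and MYCL at 0.108. MAX thus had rank 5 in knockdown and rank 2 in control, and MXD1 had rank 4 in knockdown and rank 7 in control. Among neighbours in these orders, the libraries of MAX and MXI1 overlapped in knockdown, and those of MXD3 and MXI1 and of MXI1 and MXD1 overlapped in control. With the longest transcript as the length in place of all exons, MAX had rank 4 in knockdown and rank 3 in control. MXD1 then had rank 5 in knockdown and rank 8 in control. MXD3 in control was then at 8.71, above MXI1 at 4.65 and MXD1 at 3.93. Exonic bases shared with other genes, 40.4% in MXD3, 18.1% in MLX and 12.2% in MNT, count in the length. Their part in these orders was not tested.

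Ratios to MAX per kilobase stood apart between the groups. MAX is their shared denominator, so this largely restates the fall of MAX given above. The ratio of MYC to MAX transcript was 18.3 ± 1.42 in knockdown and 8.13 ± 0.405 in control (SD, n = 3 each), with no overlap between libraries. The summed level of MXD1, MXD3, MXD4, MXI1 and MNT was 25.3 ± 0.846 FPKM in knockdown and 21.95 ± 1.06 FPKM in control. Set against MAX, that sum was 4.82 ± 0.422 in knockdown and 2.02 ± 0.126 in control. Set against the sum, MYC was 3.80 ± 0.278 in knockdown and 4.02 ± 0.230 in control, and there the libraries overlapped. With the longest transcript as the length this last ratio was 3.15 ± 0.236 in knockdown and 3.10 ± 0.170 in control. These ratios are of transcripts, not of proteins, and carry no test, since the members were chosen with earlier results known.

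**Figure D3:**
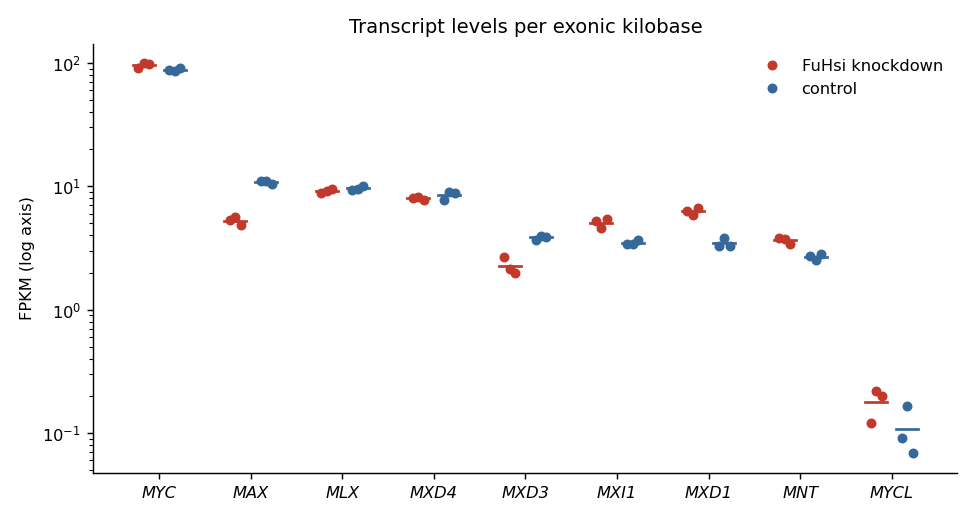
Transcript level per exonic kilobase (FPKM, log axis) of the 9 members with counts, ordered by the control mean, with 3 FuHsi-knockdown libraries (red, left) and 3 control libraries (blue, right) per gene. Points are libraries and short lines are means. MYC lies far above all others at 95.9 FPKM in knockdown and 88.2 FPKM in control, and MAX has rank 5 in knockdown and rank 2 in control.

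Genes with the pattern most like MYC over the 6 libraries were YWHAB, GTF2H1 and UHRF2, with root mean square differences of centred log2 CPM of 0.0157, 0.0161 and 0.0184 among 12369 genes compared. Those most like MAX were MCRIP1, EIF4B and E2F1, at 0.0314, 0.0325 and 0.0407. The log2 fold changes of these 3 were -0.996, -1.03 and -1.03. The measure mostly picks genes with a like fold change between the groups, so these values follow from the choice. Shared regulation with MYC or MAX was not tested.

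Beyond the members, 5 genes of the wider network were listed. MGA, the large MAX partner of a Polycomb complex, had 182 ± 8.04 CPM in knockdown and 174 ± 6.35 CPM in control (SD, n = 3 each) and was not called, at 0.07 (adjusted p = 0.123). MLXIP had 58.1 ± 1.83 CPM in knockdown and 58.3 ± 1.90 CPM in control, at -0.01 (adjusted p = 0.939). The 95% interval of its log2 fold change ran from -0.11 to 0.10. ARRDC4, an arrestin-like brake on glucose uptake whose E-box is printed above, had 58, 64 and 72 counts in the knockdown libraries, against 25, 24 and 32 in control. It rose by 1.48 ± 0.29 (SE) on the log2 scale (edgeR adjusted p = 9.7e-06). MLXIPL was also called higher at 0.85 (edgeR adjusted p = 0.0287), from groups that overlapped and with 68 counts in knockdown replicate 1 against 22 to 30 in the other 5 libraries. It was not called without that library, at 0.36 (edgeR adjusted p = 0.469), nor without control replicate 1 or control replicate 2, at 0.82 and 0.72. The call was also lost with DESeq2 (adjusted p = 0.134) and limma voom (adjusted p = 0.0531). The same held with counts thinned to the smallest library and with a replicate block (edgeR adjusted p = 0.051 and 0.0512). TXNIP, the other classical MLXIP target, had 2, 4 and 0 counts in knockdown and 20, 0 and 0 in control, and was too low to test.

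PVT1, the long non-coding gene beside MYC, had 55.96, 52.8 and 54.96 CPM in the knockdown libraries, against 37.6, 36.9 and 33.02 CPM in the control libraries. The groups were well apart. Its log2 fold change was 0.60 ± 0.06 (SE) (edgeR adjusted p = 1.69e-13), and MYC itself had 0.12. CASC11 was too low to test, and MYCNOS and MYCNUT had 0 counts throughout.

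The gene lists that follow hold mostly abundant genes, and lower calls are more common there in the whole table. In the highest abundance class 26.7% of all tested genes were higher and 60.3% lower, and in the next class 32.3% were higher and 45.8% lower.

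SIN3-HDAC and NCOR subunits, the corepressors of the MXD proteins and MNT, were split. Of 18 tested, 7 rose and 7 fell (38.9% each), beside 30.7% higher and 30.9% lower of all tested genes. The list's median log2 fold change was -0.01 beside 0.03 for all tested genes, and 0.14 with library size alone. Of its 10 genes in the highest abundance class 2 rose and 6 fell, and all 4 in the next class rose. SIN3A, the scaffold that the MXD proteins bind, was at 0.00 and not called. HDAC2, a catalytic deacetylase, had 226 ± 5.22 CPM in knockdown and 364 ± 1.10 CPM in control, and fell by 0.69 on the log2 scale. RBBP7, a histone chaperone, and BRMS1L fell by 0.58 and 0.57. ARID4A, SUDS3 and ARID4B, further subunits of these complexes, rose by 0.86, 0.72 and 0.64.

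Of 17 MYC coactivators and binding partners tested, 4 rose and 10 fell (58.8%), with a median of -0.21. This is close to genes of like abundance, since 13 of the 17 lie in the highest class, with 60.3% lower and a median of -0.20. WDR5, a chromatin protein that MYC binds directly, had 93.3 ± 2.82 CPM in knockdown and 177 ± 3.95 CPM in control, and fell by 0.92 on the log2 scale. HCFC1, a host cell factor that MYC also binds, and ACTL6A fell by 0.90 and 0.77. ZBTB17 (MIZ1), through which MYC represses genes, had 66.7 ± 3.84 CPM in knockdown and 39.04 ± 1.37 CPM in control, and rose by 0.77. CCNT1, a cyclin of the elongation kinase CDK9, rose by 0.44. With library size alone the list's median was -0.06.

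Of 15 tested genes for turnover of MYC protein, 3 rose and 10 fell (66.7%), with a median of -0.32, and -0.16 with library size alone. Of these, 8 lie in the highest abundance class, where 60.3% of all genes were lower, and 5 in the next. The ligases went both ways. FBXW7, the ubiquitin ligase part that marks phosphorylated MYC for destruction, had 26.4 ± 1.05 CPM in knockdown and 15.01 ± 0.848 CPM in control, and rose by 0.81. HUWE1, another ligase, rose by 0.40 and GSK3B, a kinase that primes MYC for FBXW7, by 0.13. GSK3A, the paralog of GSK3B, had 171 ± 3.96 CPM in knockdown and 215 ± 2.63 CPM in control, and fell by 0.32. AURKA and USP28, both known to shield MYC-family proteins from FBXW7, fell by 0.84 and 0.32. Among the other USP genes of this list, USP37 fell by 0.61 and USP36 was not called, at -0.08. Other genes share 32.8% of the exonic bases of USP37. SKP2 and STUB1, ligases as well, fell by 0.79 and 0.73; 42.4% of the exonic bases of STUB1 lie in other genes too.

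Proteins that bind the MYC gene or its mRNA numbered 13 tested, of which 3 rose and 8 fell (61.5%), with a median of -0.27; with library size alone 5 rose and the median was -0.12. The share that fell is close to the 60.3% of the highest abundance class, which holds 11 of the 13. ZFP36, which speeds decay of mRNAs with AU-rich elements, had 120.03 ± 12.8 CPM in knockdown and 57.8 ± 0.919 CPM in control, and rose by 1.05. IGF2BP2, a stabiliser of target mRNAs, rose by 0.65 and FUBP1, an activator of MYC transcription, by 0.10. NME2, ELAVL1 and HNRNPK fell by 0.66, 0.57 and 0.53, and 22.9% of the exonic bases of NME2 lie in other genes too.

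Genes known as MYC targets were largely lower, while MYC transcript was slightly higher. Of 56 tested genes of a MYC target collection, 3 rose and 47 fell (83.9%), with a median of -0.56. Of its 32 genes in the highest abundance class 28 fell, and of its 17 in the next class 15 fell, beside 60.3% and 45.8% of all genes there. AIMP2, a scaffold of tRNA synthetases, had 15.8 ± 0.226 CPM in knockdown and 77.9 ± 0.387 CPM in control, and fell by 2.30 on the log2 scale, but shares 28.9% of its exonic bases with another gene. NOLC1, a nucleolar chaperone, fell by 1.83 and UNG, a DNA repair glycosylase, by 1.63. UTP20, DDX18 and PPRC1 rose by 0.16, 0.14 and 0.10. Many of these genes serve ribosome assembly and DNA replication, whose lower levels in these libraries were known before the list was written.

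Single genes classically given as MYC-activated were mostly lower too. Of 27 tested, 3 rose and 22 fell (81.5%), with a median of -0.69, and 5 of them are also in the target collection. In the highest abundance class 19 of its 20 genes fell. ODC1, the rate-limiting enzyme of polyamine synthesis, had 386, 395 and 389 CPM in the knockdown libraries, against 698, 741 and 754 CPM in the control libraries. The groups were far apart, at a log2 fold change of -0.91. SRM, which makes spermidine in the next step, had 90.5 ± 3.77 CPM in knockdown and 231 ± 12.004 CPM in control, and fell by 1.35. CAD, which starts pyrimidine synthesis, fell by 0.35, NCL (nucleolin) by 0.72, CDC25A, a cell-cycle phosphatase, by 1.17, and TFRC, the transferrin receptor, by 1.04. CCND2 (cyclin D2) rose by 1.21, and SHMT2 and SLC2A1, of serine metabolism and glucose uptake, by 0.40 and 0.35.

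Genes classically given as MYC-repressed leaned the other way. Of 10 tested, 6 rose and 1 fell, with a median of 0.45. Among all tested genes 30.7% rose and 30.9% fell, around a median of 0.03. Only 4 of the 10 lie in the highest abundance class, of which 2 rose and 0 fell. The next class holds 2 and the middle class 1, and all of these rose. The lowest class holds 1, which rose, and the next-lowest 2, of which 0 rose and 1 fell. In those low classes 4.99% and 14.3% of all genes fell, and 20.9% and 33.8% rose. With 1 library left out the list's median ran from 0.44 to 0.77, but the number of genes tested also changed. It was 0.45 without knockdown replicate 2 and 0.44 without knockdown replicate 3, with 10 genes tested in each. With 11 genes tested, it was 0.74 without knockdown replicate 1 and 0.77, 0.71 and 0.73 without control replicates 1, 2 and 3. Those higher medians are of a changed gene set, so they do not show how the median of the same 10 genes depends on 1 library. DDIT3 (CHOP), a stress transcription factor, had 65.4 ± 6.14 CPM in knockdown and 10.003 ± 0.0972 CPM in control, and rose by 2.71 on the log2 scale; 39.6% of its exonic bases lie in other genes too. GADD45A, a growth-arrest gene, had 337 ± 29.6 CPM in knockdown and 139 ± 4.63 CPM in control, and rose by 1.28. CDKN1B (p27), a brake on cyclin-dependent kinases, rose by 0.76. NDRG2 fell by 0.68; CDKN1A was also lower without knockdown replicate 2, knockdown replicate 3 or control replicate 2, and FTH1 without knockdown replicate 2.

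**Figure D4:**
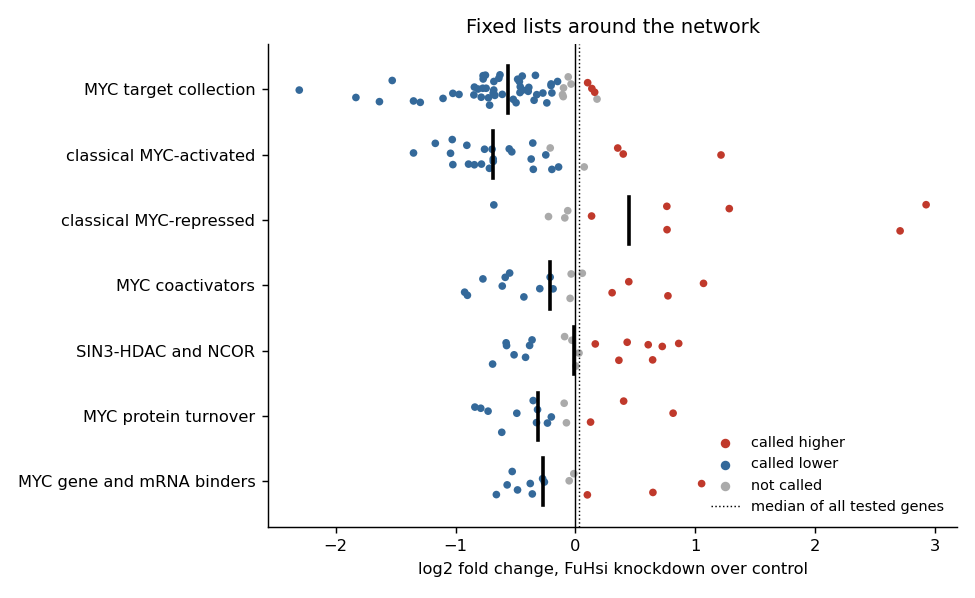
Log2 fold changes (FuHsi knockdown over control) of the tested genes of 7 lists, 1 point per gene, red where called higher, blue where called lower and grey where not called, with the list median as a black bar. The MYC target collection and the MYC-activated list have medians of -0.56 and -0.69, the MYC-repressed list 0.45, and the median of all tested genes (dotted) is 0.03.

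Library size alone as the scale raised the median log2 fold change of all genes by 0.15, and made 64.4% of called genes higher against 49.9% with TMM. The same 4 members were then higher and the same 2 lower. MYC targets were also lower there, with 40 of the collection and 19 of the activated list lower, and 4 and 3 higher.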

How the data were processed

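RNA of 3 FuHsi-knockdown and 3 control libraries was analysed. The authors deposited 1 table of raw read counts per Ensembl gene. Per the submitters' processing notes, the build was hg38 and the tools were STAR 2.7.0d, Trim Galore 0.6.6, DESeq2 1.30.1 and featureCounts 2.0.1. Settings and annotation release: not given in the sources used here.

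Symbols came from a table of gene names (60261 of 60617 identifiers) and GENCODE v29 on GRCh38 (335 more), which also gave coordinates, lengths and shared exonic bases. In edgeR 4.0.16, genes passed filterByExpr (minimum count 10) and were scaled by TMM and tested by its quasi-likelihood test with robust dispersions, group as the only term, in R 4.3.3. SEs were derived from the F statistic, and 95% intervals are 1.96 SEs on each side. FPKM is scaled CPM per kilobase of exon union.

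The members and lists were chosen with earlier results of these data known; lists were written from memory. All members were named. From each list, up to 3 called genes per direction were named by size of change, at a mean log2 CPM of at least 1. TXNIP, ARRDC4, MGA, MLXIP, PVT1, ODC1, CAD and NCL were named whatever their values. MLXIPL, USP28, USP36, USP37, GSK3A, SIN3A, CASC11, MYCNOS and MYCNUT were added after their values were seen. No set test was run. Some genes under the rule are not reported here. CCAT1 matched no row and was not analysed here. Intervals and the limit of 3 counts at a count of 0 cover counting error only.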

Additional observations from a re-analysis of the deposited data

How the results depend on the processing

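Alternatives were RLE and upper-quartile factors, library size alone, no low-count filter, DESeq2, limma voom, counts thinned to the smallest library, a replicate block and leaving out each library. MYC, MAX, MXD1, MXD3, MXI1 and MNT kept their direction and call in all 14. Their log2 fold changes ran from 0.09 to 0.27 (MYC, with adjusted p up to 0.0452), -1.10 to -0.89 (MAX), 0.81 to 1.02 (MXD1), -0.91 to -0.60 (MXD3), 0.49 to 0.69 (MXI1) and 0.40 to 0.60 (MNT). With library size alone MXD4 was 0.0686 and MLX 0.0771, both reversed and not called, the wider network had 4 genes higher and the binders of the MYC gene or mRNA 5. DESeq2, limma voom, thinning and the replicate block each left 1 gene of the wider network higher, ARRDC4, and MLXIPL was not called. Without a filter the MYC-repressed list had 2 genes lower. Leaving out 1 library gave 1 to 2 genes higher in the wider network, 1 to 3 lower in the MYC-repressed list, -0.156 to -0.0543 for MXD4, 0.48 to 1.15 for MYCL, 4 to 5 members higher and 2 to 3 lower.

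With the replicate block 5214 genes were higher and 5263 lower, with 4 members higher and 2 lower. Deviations of same-numbered libraries correlated at -0.000751, -0.00642 and -0.0235, so no shared effect of the replicate number was seen. Whether same-numbered libraries were prepared together is not given in the labels. With the longest transcript as the length, FPKM values rose for all members but MYCN. MYCL had 10 to 28 counts per library; whether depth or spread among the libraries set its adjusted p was not tested.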
